A study of Homo sapiens with 9 samples.

Results

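The genes described are those of 7 solute carrier families that move amino acids and related small molecules across membranes: every row of the expression table whose symbol starts with SLC1A, SLC3A, SLC6A, SLC7A, SLC36A, SLC38A or SLC43A. This gave 50 of the 19356 genes in the table. A filter on low values (the antilogs of the 9 libraries averaging 10 or more) kept 38 of the 50 and 16457 genes in all. The values come from sequencing of polyadenylated RNA of LN229, a long-established line of human glioblastoma cells, given on a log2 scale after the authors' scaling. There were 3 groups of 3 libraries. Wild-type cells (WT) carried no edit that the labels name. B3 and C4 are 2 lines of ARNT2 KO genotype, in which the gene of the transcription factor ARNT2 was targeted with CRISPR. All cells grew in DMEM with 5% FBS at 37 °C and 5% CO2. The labels do not say whether each line was grown from a single cell, which guide was used, or whether a group's libraries stem from separate cultures; the p-values thus reflect only how far these libraries differ, which may be technical. The study's aim was to learn what ARNT2 does in proliferation and differentiation of these cells.

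Amino acid carriers differ in what they accept and in what drives them. A heavy chain, SLC3A2 (also called 4F2hc or CD98) or SLC3A1, takes a light chain of the SLC7 family to the cell surface. The pair SLC3A2 and SLC7A5 (LAT1) exchanges glutamine for large neutral amino acids such as leucine, and the pair SLC3A2 and SLC7A11 (xCT) exchanges glutamate for cystine, which feeds glutathione synthesis and is much studied in glioma. SLC1 holds the sodium-driven glutamate carriers of glia and neurons and the neutral amino acid exchangers, SLC38 holds glutamine carriers of the surface and the lysosome, SLC36 proton-coupled carriers, SLC43 facilitators that need no heavy chain, and SLC6 carriers of glycine, taurine, creatine and neurotransmitters. When amino acids run short, the kinase EIF2AK4 (GCN2) raises translation of the transcription factor ATF4, which is known to induce several of these carriers.

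Relative to wild type, ARNT2 RNA itself stood at 31.1% in B3 and 37.1% in C4, which does not show whether protein was made. Of the 7 glioma and astrocyte markers looked up, VIM, CD44, S100B and NES had mean log2 values above 15 in every group, while GFAP lay below 7 and SOX9 below 5. Of 4 neuron markers, SYT1 and SNAP25 had wild-type means of 12.34 and 11.47, and RBFOX3 and STMN2 of 3.30 and 3.27. Nearly all of their sum thus came from SYT1 and SNAP25. The antilogs summed to log2 values of 12.943 to 13.002 in wild type, 12.866 to 12.886 in B3 and 12.572 to 12.585 in C4. The sum of the 3 immune markers in the table was 10.690 to 10.735, 10.942 to 10.998 and 10.688 to 10.708 in the same order. Of these, CD68 made up nearly all of it and was called higher in B3 by 0.27, while PTPRC and CD3E had means below 3 in every group. The sum of 2 endothelial markers was 8.98 to 9.07, 8.63 to 8.73 and 8.96 to 9.01. Most of it came from VWF. PECAM1, at a wild-type mean of 5.43, was called lower in both lines, by 0.12 in B3 and 0.23 in C4. The neuron sum thus differed between all 3 groups. The immune and endothelial sums differed in B3 only, with wild type and C4 overlapping. The part of these sums in the results on carriers was not tested. The sum of 3 epithelial markers, 8.42 to 8.69, 8.36 to 8.73 and 8.06 to 8.74, overlapped between all groups. Read depth is unknown, and in bulk RNA fewer cells of a type and less RNA per cell cannot be told apart.

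Short stretches of the carriers' promoters are shown because 2 sequence motifs bear on this design. One is TGATGNAA, the core of the element through which ATF4 acts. The other is CACGTG, which holds ACGTG, a core that dimers of ARNT family proteins bind. RefSeq promoter windows on GRCh38.p14, from 250 bases before to 50 bases after a start, were found for 34 of the 50 genes, with 56 windows because several genes have more than 1 start. SLC7A11, SLC38A3 and SLC43A3 were among the 16 genes with no entry. TGATGNAA, sought on both strands, was in 6 of the 56 windows, each of a different gene, and in 3.62% of the 35116 windows of all genes. Those 6 stretches are given 5′ to 3′ on the gene's strand, with the motif or its reverse complement in capitals:
SLC3A2, chr11:62881726-62881748, plus strand: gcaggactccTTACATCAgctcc
SLC7A1, chr13:29595664-29595691, minus strand: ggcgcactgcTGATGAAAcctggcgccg
SLC1A5, chr19:46784894-46784921, minus strand: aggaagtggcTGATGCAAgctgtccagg
SLC38A1, chr12:46266503-46266530, minus strand: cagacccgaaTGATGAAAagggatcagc
SLC1A3, chr5:36596358-36596385, plus strand: aggaaatgacTGATGCAAagcagggtta
SLC1A4, chr2:64989382-64989409, plus strand: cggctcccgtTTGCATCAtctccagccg

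The match lay 97 bases before a start of SLC1A5, 220 before one of SLC1A3, 7 before one of SLC1A4 and 4 before one of SLC38A1, and 7 and 37 bases after a start of SLC7A1 and SLC3A2. CACGTG, which reads the same on both strands, was in 9 of the 56 windows, each of a different gene, and in 7.26% of the windows of all genes. ACGTG, which CACGTG contains, was in 16 of the 56 windows, of 15 genes, and in 21.4% of the windows of all genes. The windows with CACGTG are those of SLC1A5, SLC36A1, SLC38A5, SLC38A7, SLC43A1, SLC6A16, SLC7A5, SLC7A7 and SLC7A8. Shown here, with the motif in capitals, are the stretches of the 5 of these genes with the largest changes in C4 in either direction, SLC36A1 with both of its matches:
SLC7A5, chr16:87869622-87869647, minus strand: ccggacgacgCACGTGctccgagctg
SLC1A5, chr19:46787328-46787353, minus strand: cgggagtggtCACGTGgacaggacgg
SLC43A1, chr11:57515799-57515824, minus strand: gcgggcgagtCACGTGcgcgtgaaac
SLC36A1, chr5:151447550-151447575, plus strand: ctcaagggagCACGTGacctcggcct
SLC36A1, chr5:151447585-151447610, plus strand: gcggtgggatCACGTGatgaggtccg
SLC38A7, chr16:58684741-58684766, minus strand: gatgcatgctCACGTGtctccgcagc

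A match describes the letters of the window and is not a binding site. SLC7A5 held CACGTG at 130 bases before its start and no TGATGNAA in the window, and SLC1A5 held both motifs, at different starts.

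The level of each carrier was compared per length, as the antilog of the log2 value per kilobase of exon in GENCODE 29. In wild type the highest level was that of SLC1A5 (ASCT2), an exchanger of glutamine and other neutral amino acids, at 14800 (14600 to 15000 over the 3 libraries). SLC7A5 followed at 11900 (11700 to 12100) and SLC38A2 (SNAT2), a sodium-driven carrier of small neutral amino acids, at 11400 (11300 to 11700). SLC1A5 lay above the others without overlap, while the ranges of SLC7A5 and SLC38A2 came within rounding of each other at 11700. SLC1A4 (ASCT1), which exchanges serine, alanine and threonine, stood at 10500 and the heavy chain SLC3A2 at 7200. Next came the arginine and lysine carrier SLC7A1 (CAT1) at 3970 and the creatine carrier SLC6A8 at 3750. SLC7A11 was in 11th place at 2430 (2410 to 2460), within the spread of the glutamate carrier SLC1A1 at 2460 (2340 to 2610).

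The glial glutamate carriers were unequal. SLC1A3 (GLAST) stood at 800 per kilobase in wild type, and SLC1A2 (GLT-1), the main glutamate carrier of mature astrocytes, at 1.21, lowest of the 38 genes that passed the filter. This rank rests on its long exon length of 22835 bases. Before division by length, SLC7A14, SLC7A8, SLC7A9 and SLC38A5 had lower mean antilogs than SLC1A2. In C4 the order at the top was different: SLC1A4 led at 12300, before SLC1A5 at 9360, SLC38A2 at 9260 and SLC7A5 at 7450. In B3, SLC1A5 and SLC7A5 shared a level of 13900. Together the 50 genes took 0.337% to 0.352% of a library's summed antilogs in wild type, 0.335% to 0.343% in B3 and 0.280% to 0.286% in C4. C4 was thus below both other groups without overlap.

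**Figure D1:**
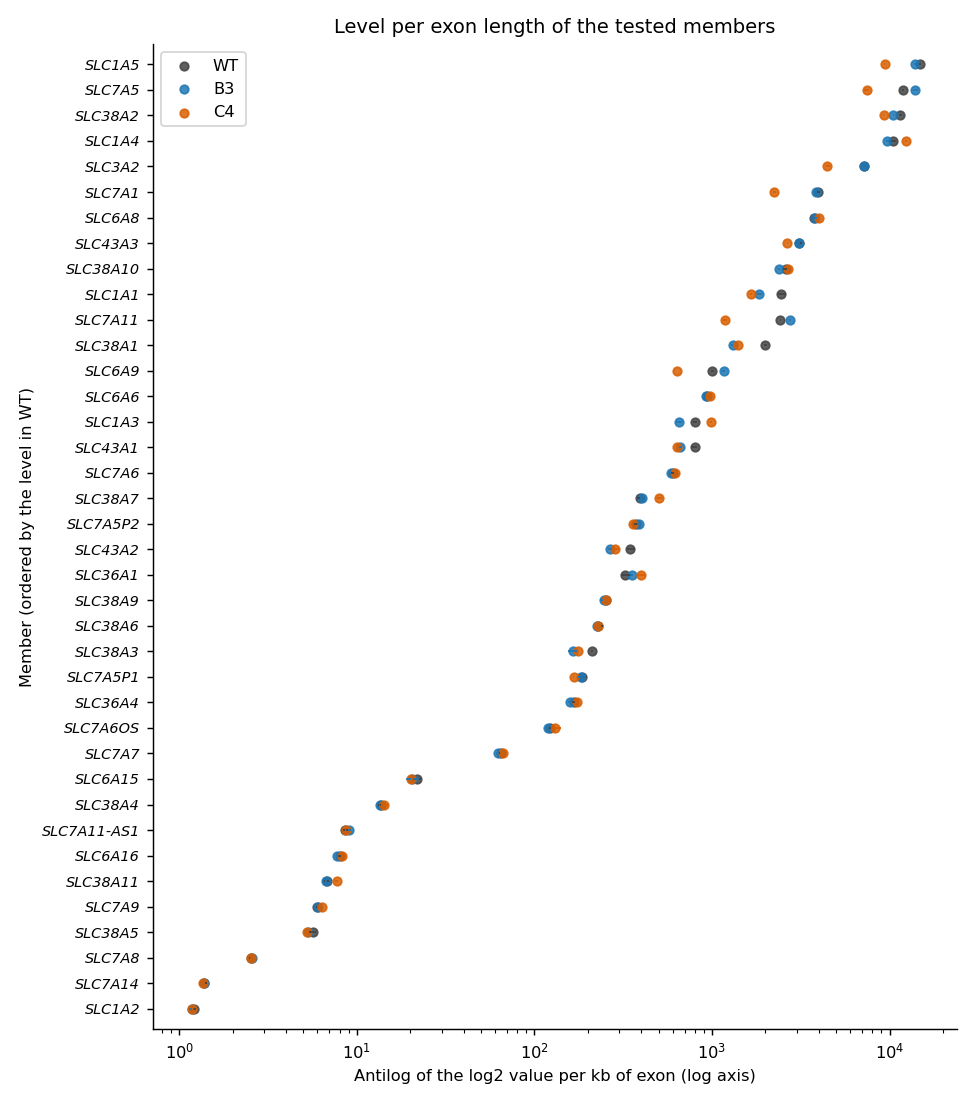
Level of the 38 tested carrier genes per kilobase of exon (horizontal log axis, antilog of the deposited log2 value divided by exon length), ordered by the wild-type level; points are group means and lines span the 3 libraries. SLC1A5 is highest in wild type at 14800 and SLC1A2 lowest at 1.21, and the C4 points of SLC7A11, SLC7A1, SLC3A2 and SLC7A5 lie to the left of the other groups.

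The 12 genes left out by the filter had log2 values from just above 0 to 3.07 in all 9 libraries. They are SLC1A6, a neuronal glutamate carrier, the kidney heavy chain SLC3A1, the dopamine and serotonin carriers SLC6A3 and SLC6A4, SLC6A12, SLC6A13, SLC6A14, SLC6A17, the pseudogene SLC6A10P, and SLC7A2, SLC7A3 and SLC7A4. The SLC6 family lost most: 5 of its 12 genes were tested, against 10 of 10 SLC38 genes, 12 of 15 SLC7 genes, 5 of 6 SLC1 genes, 1 of 2 SLC3 genes and all 5 genes of SLC36 and SLC43. Some of the tested genes are no carriers: SLC7A11-AS1 is an antisense gene, SLC7A5P1 and SLC7A5P2 are pseudogenes, and SLC7A6OS is a gene on the strand opposite SLC7A6.

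B3 and C4 were each compared with wild type, and with one another, in a limma fit of all 9 libraries. Genes count as called if their p, adjusted by Benjamini-Hochberg over all tested genes, was under 0.05. Changes are log2 differences ± SE, from 3 libraries per group. B3 and C4 share the wild-type libraries, so their changes are not independent and are set side by side only. In B3, 4 of the 38 genes were called higher and 11 lower, where the background over all genes was 23.2% higher and 24.6% lower. In C4, 7 were called higher against a background of 28.2%, and 15 lower against a background of 28.0%. Their median change was -0.04 in B3 and -0.01 in C4, beside a median of 0.00 over all genes in both. In most carriers the change was small: the median size was 0.06 in B3 and 0.13 in C4, against 0.07 and 0.09 over all genes. Larger decreases were found mainly in C4. There 7 of the 38 were called lower by at least 0.5, against a background of 2.34%, and 0 were called higher by that much, against 1.04%. The 7 are SLC7A11, SLC7A1, SLC3A2, SLC7A5, SLC6A9, SLC1A5 and SLC1A1. Libraries of B3 and wild type did not overlap in 16 of the 38 genes and in 8852 of all 16457 tested genes. For C4 and wild type these counts were 25 and 9989, and for C4 and B3 29 and 10253. A lack of overlap is thus common in this table. Values of weakly expressed genes vary little between libraries, so their changes are understated.

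**Figure D2:**
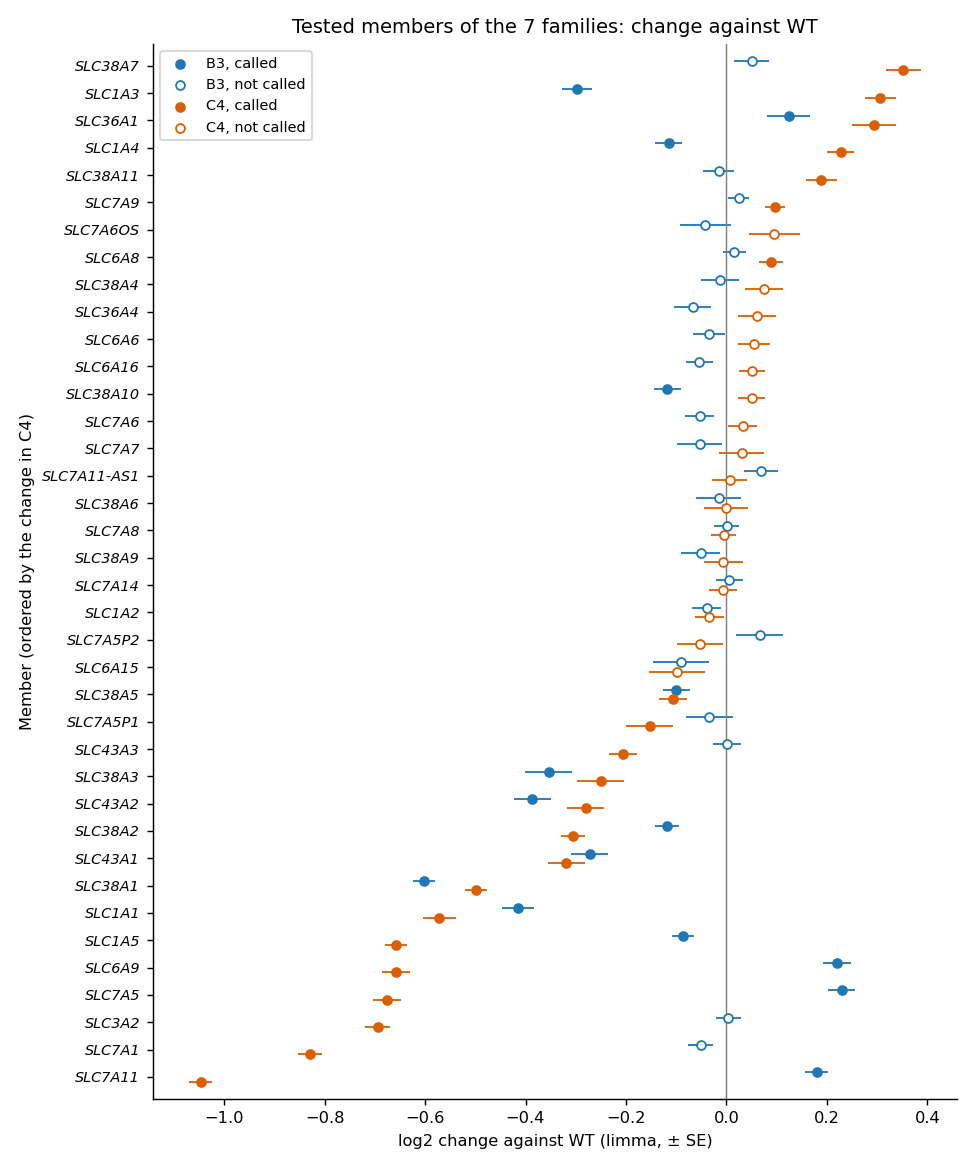
Change of the 38 tested genes against wild type (horizontal axis, log2, bars are SE of limma), ordered by the change in C4; filled points passed an adjusted p of 0.05 and open points did not. The C4 points of SLC7A11, SLC7A1, SLC3A2, SLC7A5, SLC1A5 and SLC6A9 lie between -1.05 and -0.66, while their B3 points lie between -0.09 and 0.23.

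The heavy chain SLC3A2 and 2 of its light chains, SLC7A11 and SLC7A5, fell in C4, while of the other 4 light chains tested 1 was called higher and 3 were not called. The cystine and glutamate exchanger gene SLC7A11 (ENSG00000151012.13, GRCh38 chromosome 4, 138164097 to 138242349, minus strand) had log2 values of 14.50, 14.54 and 14.52 in wild type, 14.70, 14.71 and 14.68 in B3 and 13.45, 13.45 and 13.51 in C4. All C4 libraries were below all wild-type libraries, and all B3 libraries above them. Its level in C4 was 48.4% of wild type, a change of -1.05 ± 0.02 (limma, adjusted p = 1.01e-20), and in B3 it rose by 0.18 ± 0.02 (adjusted p = 6.97e-07). No other carrier changed by as much as 1 on the log2 scale in either line. The overlapping antisense gene SLC7A11-AS1 was at 0.01 ± 0.03 in C4 and 0.07 ± 0.03 in B3 and was not called, except in B3 without wild-type replicate 2 (adjusted p = 0.0399) and at equal library totals (0.0179). Whether reads were counted by strand is not given in the sources used here, so reads of this pair may not be told apart.

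SLC7A5, the large neutral amino acid exchanger (ENSG00000103257.8, GRCh38 chromosome 16, 87830023 to 87869488, minus strand), followed the same order of groups. Its values were 15.81, 15.76 and 15.78 in wild type, 15.97, 16.06 and 16.02 in B3 and 15.06, 15.11 and 15.15 in C4. No library of one group overlapped another group. The change was -0.68 ± 0.03 in C4 (adjusted p = 8.66e-16), to 62.6% of wild type, and 0.23 ± 0.03 in B3 (adjusted p = 2.68e-07). SLC7A5P1 and SLC7A5P2, short pseudogene copies of it on the same chromosome, were at -0.15 ± 0.05 and -0.05 ± 0.05 in C4, of which the first was called (adjusted p = 0.00754, and 0.0645 without wild-type replicate 3). The copies are alike in sequence, so counting may have split their reads, and at 186 and 371 per kilobase in wild type they were far below SLC7A5 at 11900.

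The heavy chain gene SLC3A2 (ENSG00000168003.16, GRCh38 chromosome 11, 62856102 to 62888875, plus strand), partner of both, had values of 15.21, 15.18 and 15.17 in wild type, 15.16, 15.20 and 15.21 in B3 and 14.47, 14.46 and 14.54 in C4. Wild type and B3 overlapped, and C4 lay below both. It fell by 0.69 ± 0.02 in C4 (adjusted p = 6.9e-17), to 61.8% of wild type, while in B3 it was at 0.00 ± 0.02 and not called. The other light chains were at small values. SLC7A6 (y+LAT2), which exchanges arginine for glutamine, was at 0.03 ± 0.03 in C4 and -0.05 ± 0.03 in B3, and SLC7A7 (y+LAT1) at 0.03 ± 0.04 and -0.05 ± 0.04. SLC7A8 (LAT2), close to the filter at log2 values of 3.90 to 3.98, was at -0.01 ± 0.03 and 0.00 ± 0.03. None of these 3 was called in either line, although SLC7A6 was called in B3 without wild-type replicate 2 (adjusted p = 0.0227). SLC7A9, the partner of SLC3A1, was called higher in C4 by 0.10 ± 0.02 from an equally low level, and in B3 at equal library totals only (adjusted p = 0.0248). SLC7A6OS, which shares its locus with SLC7A6, was at 0.10 ± 0.05 in C4 and not called, except without C4 replicate 1 (adjusted p = 0.0390) and at equal library totals (0.0436).

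Of the cationic amino acid carriers, SLC7A1 (ENSG00000139514.12, GRCh38 chromosome 13, 29509410 to 29595688, minus strand) showed the second largest decrease in C4. Its values were 14.92, 14.86 and 14.92 in wild type, 14.83, 14.87 and 14.83 in B3 and 14.05, 14.11 and 14.05 in C4. The C4 libraries lay well below the rest, which overlapped with each other. The change was -0.83 ± 0.02 in C4 (adjusted p = 2.56e-18) and -0.05 ± 0.02 in B3, which was not called except without wild-type replicate 2 (adjusted p = 0.0294). SLC7A14, a lysosomal member, was near the filter and stood at -0.01 ± 0.03 in C4, not called.

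The glutamate carriers of SLC1 differed from each other. SLC1A1 (EAAC1, ENSG00000106688.11, GRCh38 chromosome 9, 4490444 to 4587469, plus strand), which also takes up cysteine, had values of 13.35, 13.25 and 13.19 in wild type, 12.83, 12.81 and 12.91 in B3 and 12.71, 12.68 and 12.68 in C4. Both lines were below wild type without overlap, by 0.41 ± 0.03 in B3 and 0.57 ± 0.03 in C4 (adjusted p = 3.33e-10 and 5.24e-13). SLC1A3 (GLAST, ENSG00000079215.13, GRCh38 chromosome 5, 36606355 to 36688334, plus strand) had values of 12.34, 12.27 and 12.26 in wild type, 11.997, 11.93 and 12.05 in B3 and 12.61, 12.60 and 12.58 in C4. The B3 libraries were the lowest and the C4 libraries the highest, with changes of -0.30 ± 0.03 in B3 and 0.31 ± 0.03 in C4 (adjusted p = 2.16e-08 and 7.63e-09). SLC1A2 had values of 4.77, 4.76 and 4.83 in wild type, 4.79, 4.76 and 4.70 in B3 and 4.75, 4.76 and 4.76 in C4, all close together, and was called in neither line.

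The 2 neutral amino acid exchangers of SLC1 were called in both lines, in different patterns. SLC1A5 (ENSG00000105281.12, GRCh38 chromosome 19, 46774883 to 46788594, minus strand) had values of 15.61, 15.57 and 15.58 in wild type, 15.48, 15.50 and 15.52 in B3 and 14.93, 14.93 and 14.93 in C4. The 3 C4 libraries were nearly equal and below all others. SLC1A5 changed by -0.66 ± 0.02 in C4 (adjusted p = 3.79e-17), to 63.4% of wild type, and by -0.09 ± 0.02 in B3 (adjusted p = 0.0027). SLC1A4 (ENSG00000115902.10, GRCh38 chromosome 2, 64988477 to 65023865, plus strand), which exchanges serine, had values of 16.21, 16.11 and 16.14 in wild type, 16.02, 16.07 and 16.04 in B3 and 16.40, 16.36 and 16.39 in C4. It rose in C4 by 0.23 ± 0.03 (adjusted p = 2.15e-07) and fell in B3 by 0.12 ± 0.03 (adjusted p = 0.00134), with no overlap of libraries in either comparison. SLC1A3 and SLC1A4 also hold a TGATGNAA stretch printed above and were higher in C4, while SLC3A2, SLC7A1, SLC1A5 and SLC38A1, the other 4 genes with it, were lower.

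**Figure D3:**
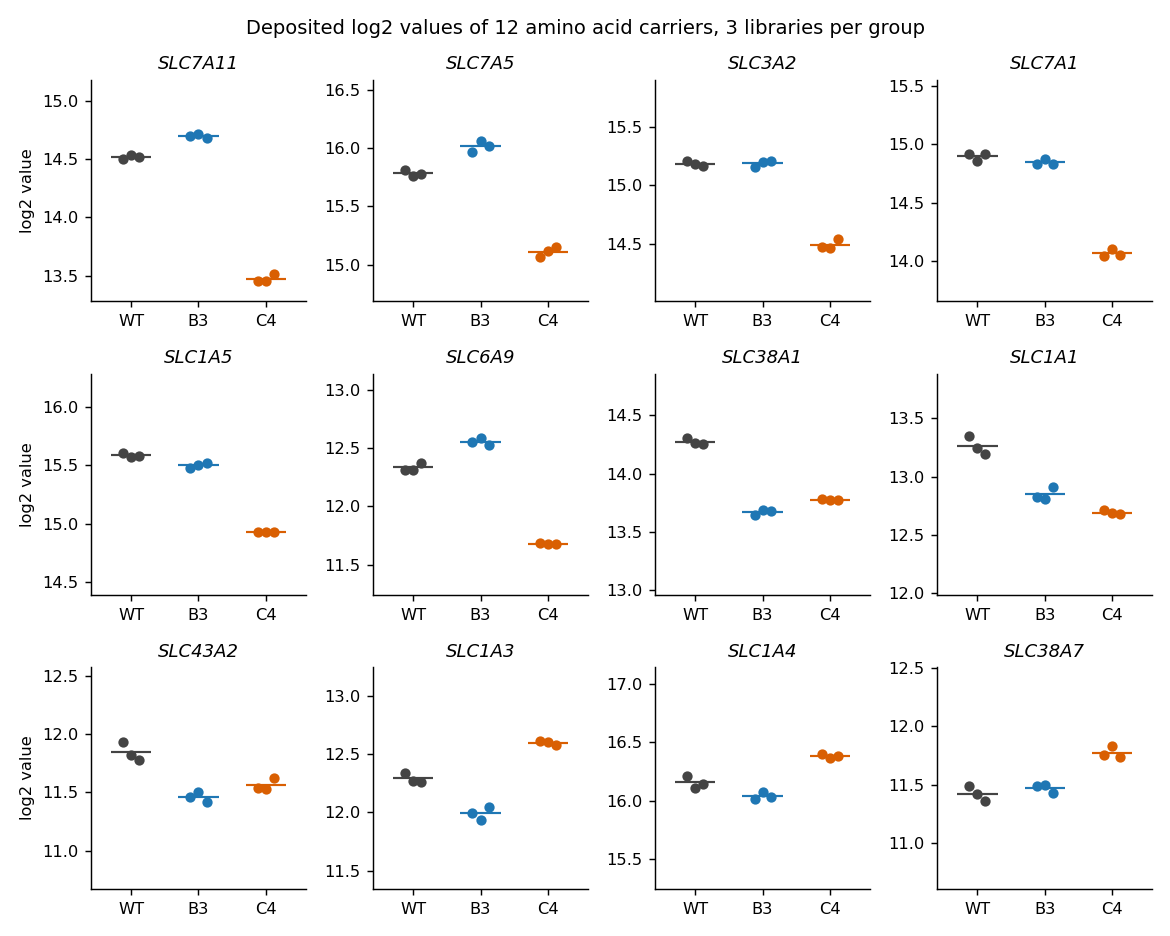
Deposited log2 values of 12 carriers in each of the 9 libraries (points, 3 per group) with group means (bars); every vertical axis spans the same number of log2 units but starts at a different value. In SLC7A11, SLC7A5 and SLC6A9 the C4 libraries are lowest and the B3 libraries highest, in SLC1A3 and SLC1A4 this order is turned round, and in SLC38A1, SLC1A1 and SLC43A2 both lines lie below wild type.

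Among the SLC38 glutamine carriers, SLC38A1 (SNAT1, ENSG00000111371.15, GRCh38 chromosome 12, 46183063 to 46270017, minus strand) was lower in both lines. Its values were 14.31, 14.26 and 14.26 in wild type, 13.65, 13.69 and 13.68 in B3 and 13.78, 13.78 and 13.77 in C4. All 6 knockout libraries lay below all wild-type ones. The change in B3 was -0.60 ± 0.02 (limma, adjusted p = 6.59e-16), to 65.9% of wild type. It was the only one of at least 0.5 among the 38 genes in that line, beside 283 of all 16457 tested genes. The change in C4 was -0.50 ± 0.02 (adjusted p = 7.05e-15), just short of 0.5 before rounding. The tested genes within 5 Mb of it, other members of the families left out, had a median change of -0.14 in B3 and 0.06 in C4. Its neighbour SLC38A2 had values of 16.24, 16.19 and 16.19 in wild type, 16.07, 16.09 and 16.10 in B3 and 15.90, 15.91 and 15.89 in C4. SLC38A2 changed by -0.12 ± 0.02 in B3, close to the -0.14 of the genes around it, and by -0.31 ± 0.02 in C4 (adjusted p = 0.00026 and 1.8e-10). SLC38A4, the third of the system A genes in that stretch of chromosome 12, was weakly expressed and called in neither line. In C4 it was called higher without wild-type replicate 1 (adjusted p = 0.0344), without C4 replicate 2 (0.0270) and at equal library totals (0.0241).

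The system N genes, whose products can release glutamine, fell in both lines. SLC38A3 (SNAT3) had values of 9.70, 9.70 and 9.72 in wild type, 9.38, 9.26 and 9.43 in B3 and 9.47, 9.48 and 9.43 in C4, and its changes were -0.35 ± 0.05 in B3 and -0.25 ± 0.05 in C4 (adjusted p = 1.2e-06 and 7.22e-05). The weakly expressed SLC38A5 changed by -0.10 ± 0.03 and -0.11 ± 0.03 (adjusted p = 0.00433 and 0.00194). At equal library totals SLC38A5 was no longer called in B3, with an adjusted p of 0.0529.

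A pair of lysosomal carriers rose in C4. SLC38A7 (SNAT7), a lysosomal glutamine and asparagine exporter, had values of 11.49, 11.42 and 11.36 in wild type, 11.49, 11.50 and 11.43 in B3 and 11.75, 11.83 and 11.74 in C4. Wild type and B3 overlapped, and C4 was higher by 0.35 ± 0.04 (adjusted p = 9.47e-09), the largest increase of the 38 genes. The tested genes within 5 Mb of it had a median change of 0.10 in C4, the highest such value around any of the 38. SLC36A1 (PAT1), a proton-coupled carrier of glycine, alanine and proline found in lysosomes, had values of 11.27, 11.10 and 11.06 in wild type, 11.24, 11.29 and 11.27 in B3 and 11.40, 11.39 and 11.51 in C4. Wild-type replicate 1 stood above the other 2 and within the B3 range, and the C4 libraries were above all wild-type ones.

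SLC36A1 was higher by 0.29 ± 0.04 in C4 (adjusted p = 3.84e-06) and by 0.12 ± 0.04 in B3 (adjusted p = 0.0221). The call in B3 ended without wild-type replicate 2 (adjusted p = 0.0928), wild-type replicate 3 (0.157), B3 replicate 2 (0.0821) or B3 replicate 3 (0.0506), and without the intensity trend (0.0536); it thus turns on single libraries. Over the alternatives that adjusted p ranged from 0.000228 to 0.157. SLC38A9, the lysosomal arginine sensor of the mTORC1 pathway, had values of 11.14, 11.10 and 11.13 in wild type, 11.02, 11.04 and 11.16 in B3 and 11.11, 11.07 and 11.17 in C4, and all 3 groups overlapped. It was at -0.01 ± 0.04 in C4 and -0.05 ± 0.04 in B3 and was not called, except in B3 without B3 replicate 3 (adjusted p = 0.0466).

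SLC38A10, whose substrates include glutamine and glutamate, had values of 14.35, 14.24 and 14.27 in wild type, 14.14, 14.17 and 14.20 in B3 and 14.31, 14.36 and 14.35 in C4. B3 lay below both other groups, which overlapped. It was called lower in B3 by 0.12 ± 0.03 (adjusted p = 0.00085). In C4 it was at 0.05 ± 0.03 and called higher only without wild-type replicate 1 (adjusted p = 0.00439) and at equal library totals (0.0192). The weakly expressed SLC38A11 was called higher in C4 by 0.19 ± 0.03. SLC36A4 and SLC38A6 were called in neither line, except SLC36A4 in C4 at equal library totals (adjusted p = 0.0466).

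All 3 SLC43 genes were called lower in C4, and 2 of the 3 in B3. SLC43A1 (LAT3) and SLC43A2 (LAT4) let branched-chain amino acids, methionine and phenylalanine pass without a heavy chain. SLC43A1 had values of 11.48, 11.50 and 11.39 in wild type, 11.12, 11.22 and 11.22 in B3 and 11.17, 11.13 and 11.12 in C4, and changed by -0.27 ± 0.04 in B3 and -0.32 ± 0.04 in C4 (adjusted p = 1.44e-06 and 8.3e-08). SLC43A2 had values of 11.93, 11.82 and 11.78 in wild type, 11.46, 11.50 and 11.42 in B3 and 11.54, 11.53 and 11.63 in C4, and changed by -0.39 ± 0.04 and -0.28 ± 0.04 (adjusted p = 1.02e-08 and 8.58e-07). For both genes every knockout library lay below every wild-type library. SLC43A3, which carries purine nucleobases rather than amino acids, was called lower in C4 alone, by 0.21 ± 0.03, and was at 0.00 ± 0.03 in B3.

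In the SLC6 family 1 gene stood out. SLC6A9 (GlyT1, ENSG00000196517.11, GRCh38 chromosome 1, 43991500 to 44031467, minus strand), the glycine carrier of glia, had values of 12.32, 12.31 and 12.38 in wild type, 12.55, 12.59 and 12.53 in B3 and 11.68, 11.68 and 11.67 in C4. The order of groups was that of SLC7A11 and SLC7A5, with B3 above and C4 below wild type and no overlap. The changes were 0.22 ± 0.03 in B3 and -0.66 ± 0.03 in C4 (adjusted p = 4.8e-07 and 1.39e-15).

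The creatine carrier SLC6A8 had values of 14.35, 14.30 and 14.34 in wild type, 14.34, 14.39 and 14.31 in B3 and 14.43, 14.41 and 14.42 in C4. It was called higher in C4 by a small 0.09 ± 0.02 and not in B3, at 0.02 ± 0.02. SLC6A8 has a near-identical pseudogene copy, SLC6A10P, near 0 in every library, so its value is uncertain. The taurine carrier SLC6A6 had values of 12.97, 12.91 and 12.89 in wild type, 12.84, 12.93 and 12.90 in B3 and 12.90, 13.03 and 13.01 in C4, with C4 overlapping wild type. It was at 0.05 ± 0.03 in C4 and not called, except without wild-type replicate 1 (adjusted p = 0.0442), without C4 replicate 1 (0.00986) and at equal library totals (0.0382). SLC6A15, a carrier of branched-chain amino acids and proline, and SLC6A16, an orphan carrier, were called in neither line. SLC6A16 was called higher in C4 at equal library totals (adjusted p = 0.0171). Without wild-type replicate 1, SLC6A15 was called lower in both (adjusted p = 0.0436 in B3 and 0.0268 in C4), and without B3 replicate 3 in B3 (0.0279).

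The lines were also compared with each other, which is the direct test of whether their carriers differ. In C4 against B3, 15 of the 38 genes were called higher, against a background of 28.6%, and 11 lower, against a background of 27.8%. By at least 0.5, 6 were lower (background 1.54%) and 1 was higher (background 2.02%). SLC7A11 differed most, at -1.23 ± 0.02 (adjusted p = 2.98e-22), so that C4 held 42.8% of the B3 level. SLC7A5 and SLC6A9 followed at -0.91 ± 0.03 and -0.88 ± 0.03, then SLC7A1 at -0.78 ± 0.02, SLC3A2 at -0.70 ± 0.02 and SLC1A5 at -0.57 ± 0.02. Upward, SLC1A3 was at 0.60 ± 0.03, SLC1A4 at 0.34 ± 0.03, SLC38A7 at 0.30 ± 0.04, and SLC38A10 and SLC36A1 at 0.17 ± 0.03 and 0.17 ± 0.04.

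Among genes called lower in both lines, the gap between the lines varied. In C4 against B3, SLC1A5 was at -0.57 ± 0.02 and SLC38A2 at -0.19 ± 0.02 (limma, adjusted p = 5.95e-16 and 5.28e-07). SLC1A1 was lower in C4 than in B3 by 0.16 ± 0.03 (adjusted p = 0.000247), and SLC38A1 higher by 0.10 ± 0.02 (adjusted p = 0.000401). SLC43A1 was at -0.05 ± 0.04 and SLC38A3 at 0.10 ± 0.05, not called. SLC38A3 was called without B3 replicate 3 (adjusted p = 0.0241) and without the intensity trend (0.0340). SLC43A2 was higher in C4 by 0.11 ± 0.04 (adjusted p = 0.0185), a call that ended without B3 replicate 3 (0.0900) or C4 replicate 3 (0.126).

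The median change of the tested genes within 5 Mb was between -0.14 and 0.04 for all 38 genes in B3 and between -0.18 and 0.10 in C4. Around the 7 genes that were lower by at least 0.5 in C4 it was -0.05 for SLC7A11, 0.04 for SLC7A1, 0.04 for SLC3A2, 0.03 for SLC7A5, 0.00 for SLC6A9, 0.00 for SLC1A5 and -0.03 for SLC1A1.

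Other genes of amino acid handling are given for comparison, as counts over lists of genes. Over all genes, 28.2% were called higher and 28.0% lower in C4, and 23.2% and 24.6% in B3. Of the 27 genes listed for the amino acid response, a list that holds ATF4, genes upstream of it such as EIF2AK4 and genes it is known to induce, 23 (85.2%) were called lower in C4 and 2 (7.41%) higher, with a median change of -0.69. EIF2AK4 was at 0.18 in C4. In B3, 13 (48.1%) were lower and 6 (22.2%) higher, with a median of -0.01. ATF4 itself changed by -0.17 in B3 and -1.01 in C4, the asparagine synthetase gene ASNS by -0.08 and -1.64, and the serine synthesis gene PHGDH by 0.08 and -0.78. In B3 the changes of the list ran from -0.70 in DDIT3, the only 1 past 0.5 in size, to 0.15 in PSAT1. These genes were at -1.39 and -0.88 in C4. TRIB3 was at -0.35 in B3 and -1.51 in C4. In C4, 19 of these 27 genes were past 0.5 in size, against 7 of the 38 carriers and 556 of all 16457 tested genes.

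Of the 14 tested amino acid carriers of other families, which include the aspartate and glutamate carriers of mitochondria, 7 (50%) were called higher and 2 (14.3%) lower in C4, and 2 (14.3%) higher and 2 (14.3%) lower in B3. Of these, SLC15A3, a lysosomal carrier of peptides and histidine, was at 0.69 in C4 and -0.04 in B3, and SLC25A44, the mitochondrial carrier of branched-chain amino acids, at 0.25 and 0.19. Among 31 genes of amino acid sensing by the mTORC1 pathway, 13 (41.9%) were higher and 5 (16.1%) lower in C4, and 10 (32.3%) higher and 3 (9.68%) lower in B3. SESN2, the leucine sensor, which is also counted among the response genes, was at -0.86 in C4 and 0.05 in B3. The GTPase gene RRAGD was at -0.72 in B3 and 0.03 in C4.

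**Figure D4:**
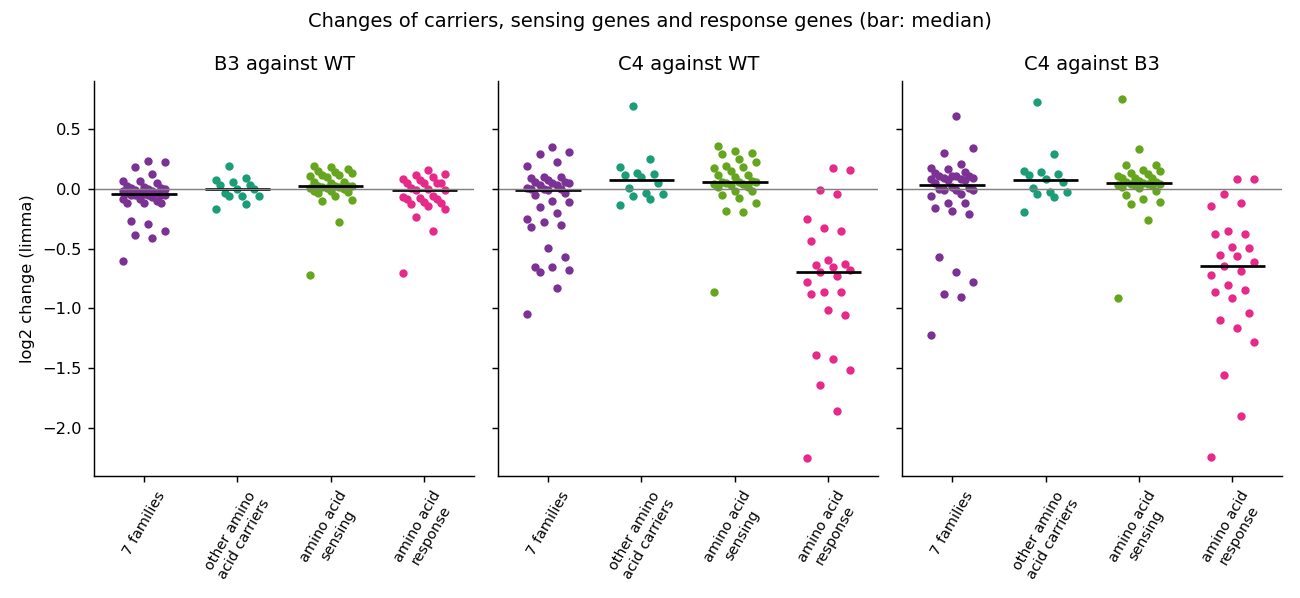
Log2 changes (vertical axis, limma) of the 38 tested genes of the 7 families, 14 amino acid carriers of other families, 31 amino acid sensing genes and 27 amino acid response genes in the 3 comparisons; a point is a gene, spread sideways only for visibility, and the bar is the median. In C4 against WT the median of the response genes is -0.69, while that of the 7 families is -0.01 with a tail of 7 genes at -0.5 or below.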

How the data were processed

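The authors deposited 1 table of log2 values, scaled between libraries, with a column per library. STAR 2.7.3a, Subread 1.6.3, DESeq2 and build hg38 are named, without roles, per the submitters' processing notes. The values have the shape of a regularized-log transform, which no label names: the median SD between replicates was 0.0452 at values of 8 to 12 and 0.00935 under 2, so changes of weakly expressed genes are understated. Depth is unknown.

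Genes whose antilogs averaged 10 or more were tested in 1 limma fit (limma 3.58.1, R 4.3.3) of all 9 libraries, with a coefficient per group and an intensity trend, two-sided, after a check on simulated data. Members, gene lists and tests were chosen with earlier results of these data known. Full values are given for a fixed set of 17 genes and, per comparison, up to 5 called genes in each direction whose antilogs averaged 50 or more and whose groups did not overlap. SLC43A1 was added to these after its values were seen. Exon lengths and positions are from GENCODE 29 on GRCh38 and promoters from RefSeq (GRCh38.p14). Alternatives were pseudocounts, filters, scalings, moderation, compared groups only, a replicate block and leaving out each library. No label gives a batch.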

Additional observations from a re-analysis of the deposited data

Results flagged for a closer look

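In 5 carriers the lines were called on opposite sides of wild type, and the direct comparison of C4 with B3 was called as well. The 5 were picked by these calls. The direct call adds little, since a gene on opposite sides differs more between the lines than from wild type. Over all 16457 tested genes, 7876 were called in B3 and 9244 in C4. How many of them share this pattern was not counted. For SLC7A11, C4 against B3 was -1.23 ± 0.02, for SLC7A5 -0.91 ± 0.03 and for SLC6A9 -0.88 ± 0.03, each higher in B3 and lower in C4 than in wild type. SLC1A3, at 0.60 ± 0.03, and SLC1A4, at 0.34 ± 0.03, were lower in B3 and higher in C4. All 3 comparisons of these genes were called under every one of the 19 alternatives. Both lines carry the ARNT2 KO genotype. Over all genes, 9284 of 16457 were called between them, and why these 5 carriers differ was not tested.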

How the results depend on the processing

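The changes of the 38 tested genes in 3 comparisons were recomputed under 19 alternatives, which left 2090 of the values on the same side of the threshold, lost 25 calls and gained 30. No called change turned its sign. The largest change whose call was lost was that of SLC7A5P1 in C4, at -0.15. At equal library totals, which move the median of all genes by 0.033 in B3 and 0.03 in C4, 13 of the 38 genes were called higher in C4 against wild type in place of 7, the gains being SLC36A4, SLC38A10, SLC38A4, SLC6A16, SLC6A6 and SLC7A6OS, and 15 were called lower as before. In B3 that scaling gave 6 higher and 10 lower in place of 4 and 11. Over all genes it put 64.2% of the calls in B3 on the higher side (48.5% as deposited) and 61.5% in C4 (50.2%). Deviations of libraries with the same replicate number correlated at -0.229 to 0.016. No pairing by number was thus seen, but this does not show how the libraries were handled. With the replicate block the counts were 4 higher and 11 lower in B3, 7 and 15 in C4, and 15 and 11 in C4 against B3. Wild-type replicate 1 was the highest wild-type library in 22 of the 38 genes, against 37.6% of all tested genes. Without it 10 were called higher and 16 lower in C4, and 4 and 12 in B3. In C4 against B3 single libraries ended 6 further calls. That of SLC6A6 was lost without B3 replicate 1, C4 replicate 2 or C4 replicate 3 (adjusted p of 0.0978 to 0.140), SLC6A8 without B3 replicate 3 (0.0713) and SLC7A6 without C4 replicate 2 (0.0668). SLC7A6OS lost it without B3 replicate 1, B3 replicate 3 or C4 replicate 3 (0.0536 to 0.216), SLC7A5P1 without B3 replicate 1 or any 1 of the C4 replicates (0.0564 to 0.247), and SLC7A5P2 without B3 replicate 3, C4 replicate 1 or C4 replicate 2 (0.0794 to 0.160). SLC38A4 gained a call there without wild-type replicate 1 (0.0402) or C4 replicate 2 (0.0137), with a pseudocount of 1 (0.0476) or 10 (0.0359), with the compared groups only (0.0454) and with robust moderation (0.0393). SLC7A7 gained one there without the intensity trend (0.0272).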
